A study of Rattus norvegicus with 18 samples.

Results

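The matrix genes described here encode proteins that surround the collagen fibrils of the liver: the small leucine-rich proteoglycans lumican (Lum), decorin (Dcn) and biglycan (Bgn), the large chondroitin sulphate proteoglycan versican (Vcan), the elastic fibre proteins fibrillin-1 (Fbn1), elastin (Eln) and fibulin-5 (Fbln5), and the glycoproteins Sparc, fibronectin (Fn1) and periostin (Postn). They are 10 of the 32623 genes in the count tables and were found by gene symbol. The list names no level or fold change, but it was drawn up with earlier results of these data known. Sparc, Fn1 and Postn are neither elastic fibre proteins nor proteoglycans, and they are treated as a group of their own. RNA was sequenced from the livers of 6 control, 6 NASH and 6 NASH-CH male Wistar rats, as 1 library per rat. NASH rats inhaled carbon tetrachloride (CCl4), a toxin that kills hepatocytes and drives scarring, with phenobarbital for 6 weeks, and were then fed a high-fat, high-cholesterol diet (HFCD) for 4 weeks without further CCl4 in the methods. NASH-CH rats, the cirrhosis group, had CCl4 with phenobarbital for 24 weeks and the HFCD for the last 16 of them. Controls received neither agent and ate chow for 12 weeks. Duration therefore differed between all groups and cannot be told apart from treatment. The labels describe the treatments as combined over 10 and 24 weeks, and rats were housed 2 per cage with the cage not given.

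Small leucine-rich proteoglycans bind fibrillar collagen and regulate how fibrils assemble, and they also hold growth factors in the matrix. Elastic fibres are made of an elastin core laid down on fibrillin microfibrils, with fibulin-5 helping the parts to join. In the liver both kinds of molecule are made mainly by stellate cells, portal fibroblasts and vessel wall cells, and both are known to accumulate in scar tissue, whereas hepatocytes make much of the fibronectin.

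Total counts per rat ran from 19498534 to 29491947 in control and NASH rats and from 44680344 to 60117822 in NASH-CH rats. Depth did not overlap between NASH-CH and the other rats, so depth and condition cannot be told apart for that group, and results were repeated with NASH-CH counts thinned. The share of counts from small non-coding RNA genes did not overlap either, at 11.09% to 13.14% in NASH-CH and 14.74% to 22.33% in the other rats. It cannot be told apart from condition, and results were also repeated without these genes. Albumin (Alb), the main plasma protein of hepatocytes, stood at 41400 to 132000 CPM in all 18 livers. In bulk tissue, fewer cells of a type and less RNA per cell cannot be told apart. Levels are given as CPM, read counts scaled to TMM-adjusted library sizes, which are not divided by gene length and so do not rank one gene against another. Differences are log2 fold changes from 1 limma-voom fit of 18 rats over 12904 genes, and a gene was called when its Benjamini-Hochberg adjusted p was under 0.05. NASH-CH rat 5 had the highest value of its group in 6 of the 10 genes (Lum, Dcn, Vcan, Fbn1, Eln and Postn), rat 6 in 3 (Bgn, Fbln5 and Fn1), and rat 4 the lowest in 7.

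Promoter sequences of RefSeq (GRCr8, another build than that of the counts) were found for 6 of the 10 genes, namely Lum, Vcan, Fbn1, Fbln5, Sparc and Postn. The 250 bases before the start are shown for Vcan, which had the largest called change of the 9 genes that passed the filter on low counts, for Lum, which was lower in all NASH rats than in all control rats, and for Sparc, the most even of the 10 across rats. Capitals mark matches on the strand opposite to the gene. These are ATTGG, the reverse complement of the CCAAT box, in Vcan and Lum, CCGCCC, that of the GC box GGGCGG, in Vcan, and CATTCC, that of the TEAD site GGAATG, in Sparc. The Vcan window lies at chr2:22595956-22596205 on the minus strand, that of Lum at chr7:34245456-34245705 on the plus strand and that of Sparc at chr10:40038817-40039066 on the minus strand.
Vcan: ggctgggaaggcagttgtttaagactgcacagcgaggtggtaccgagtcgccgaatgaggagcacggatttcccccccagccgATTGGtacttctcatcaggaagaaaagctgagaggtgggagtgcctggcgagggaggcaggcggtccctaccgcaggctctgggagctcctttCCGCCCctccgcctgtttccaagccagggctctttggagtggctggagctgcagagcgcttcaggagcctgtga
Lum: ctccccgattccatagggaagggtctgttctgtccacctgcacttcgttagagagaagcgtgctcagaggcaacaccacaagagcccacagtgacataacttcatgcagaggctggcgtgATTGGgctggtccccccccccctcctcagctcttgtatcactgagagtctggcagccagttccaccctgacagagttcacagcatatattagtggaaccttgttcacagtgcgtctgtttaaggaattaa
Sparc: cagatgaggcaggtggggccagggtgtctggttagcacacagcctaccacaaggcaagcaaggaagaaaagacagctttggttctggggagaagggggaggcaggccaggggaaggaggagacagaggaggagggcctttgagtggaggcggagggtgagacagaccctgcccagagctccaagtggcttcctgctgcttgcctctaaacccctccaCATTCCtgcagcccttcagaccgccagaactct
Searched on both strands, the CCAAT box was found in 34% of 33469 RefSeq promoter windows of the same length, the GC box in 30.5%, the TEAD site in 12.1%, the TATA box TATAAA in 12.9% and the AP-1 site TGANTCA in 6.34%. In Vcan the CCAAT box began 167 and the GC box 74 bases before the start, in Lum the CCAAT box 130 bases before it, and in Sparc the TEAD site 33 bases before it. No printed match overlapped another. Of the sequences not printed, Postn held a TATA box 44 bases before its start, Fbln5 a GC box 196 bases before it and Fbn1 none of the 5 motifs. A second Vcan start had a GC box 172 bases before it.

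**Figure D1:**
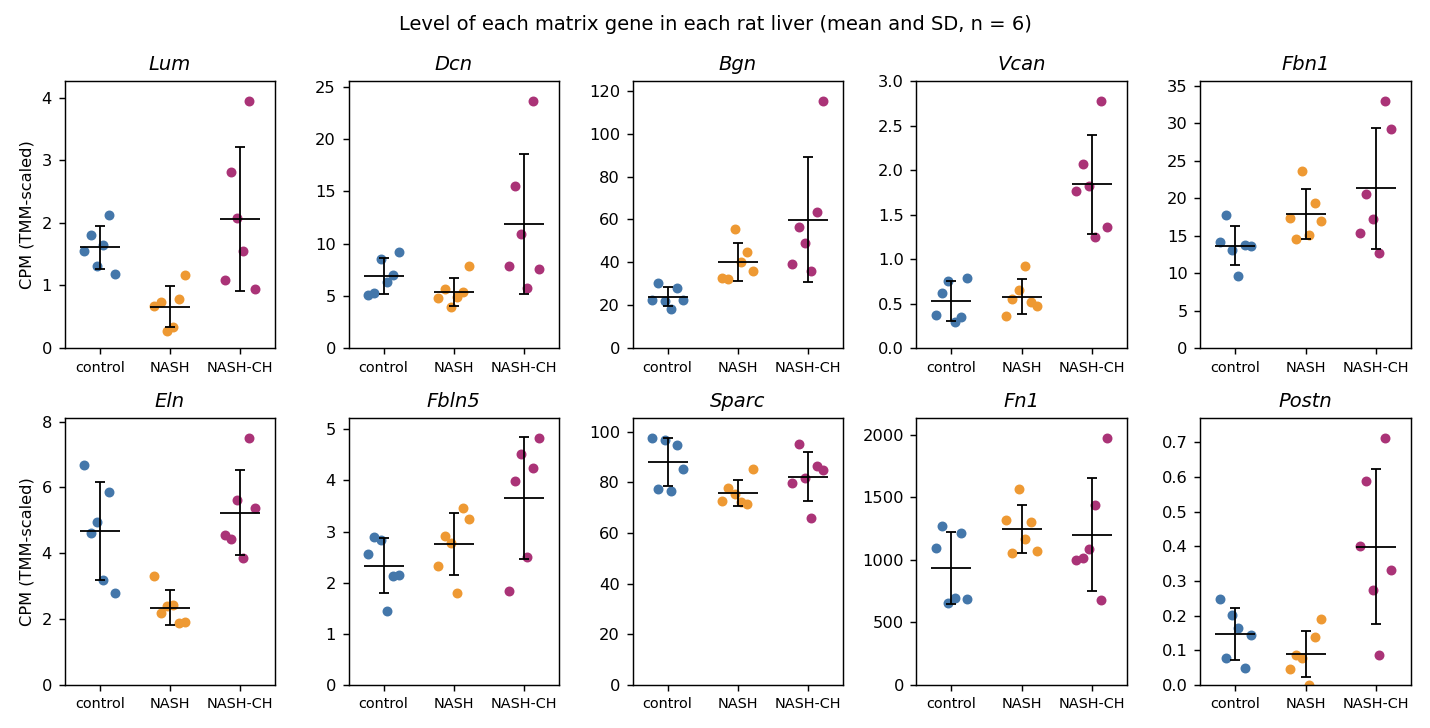
Level in CPM (y axis, linear, from 0) of each of the 10 genes in each control, NASH and NASH-CH rat (points), with the mean and SD of 6 rats (bar and whiskers). Vcan was between 1.24 and 2.78 CPM in NASH-CH and at most 0.923 CPM in the other rats, while Eln dipped in NASH and Sparc stayed between 65.8 and 97.8 CPM throughout.

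Among the small leucine-rich proteoglycans, Bgn rose in NASH-CH, and Lum and Dcn passed the threshold in no comparison. Bgn, which binds collagen and can act as a danger signal through Toll-like receptors, had a lowest, median and highest level of 18.4, 22.5 and 30.6 CPM in control rats, 32.2, 38.2 and 55.5 in NASH rats and 36.1, 52.6 and 115 in NASH-CH rats. All NASH and all NASH-CH rats were above all control rats, and 3 of the 6 NASH-CH rats were above all NASH rats. The Bgn increase in NASH-CH against control was 1.22 on the log2 scale (SE 0.22, 95% interval 0.75 to 1.68, limma adjusted p = 0.00123), a 2.32-fold difference. Bgn was called in all 18 fits that each left out 1 rat, and without NASH-CH rat 6, at 115 CPM, its log2 fold change was 1.01 (limma adjusted p = 0.00117). In NASH against control the log2 fold change of Bgn was 0.74 (SE 0.21, 95% interval 0.30 to 1.18) and missed the threshold (limma adjusted p = 0.0593), although DESeq2 called it (0.75, adjusted p = 0.0261) and so did limma without control rat 2 (0.82, adjusted p = 0.0463) or NASH-CH rat 6 (0.75, adjusted p = 0.0164). Between NASH-CH and NASH it was 0.47 (SE 0.22, adjusted p = 0.272).

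Lum, the lumican gene, had a lowest, median and highest level of 1.18, 1.61 and 2.13 CPM in control rats, 0.27, 0.698 and 1.17 in NASH rats and 0.939, 1.82 and 3.95 in NASH-CH rats. The highest NASH rat was just under the lowest control rat, and NASH-CH rats spread over both ranges. Counts behind these levels were low, from 7 to 37 in NASH and from 25 to 47 in control rats. Lum gave a log2 fold change of -1.35 in NASH (SE 0.51, 95% interval -2.41 to -0.29, limma adjusted p = 0.132), which was not called, while DESeq2 called it (-1.28, adjusted p = 0.0163). Between NASH-CH and NASH it was 1.60 (SE 0.46, limma adjusted p = 0.054), past the threshold by edgeR's quasi-likelihood test (1.63, adjusted p = 0.0117) and by DESeq2 (1.64, adjusted p = 0.000463). Without NASH-CH rat 1 or 6 limma called that difference too (1.75 and 1.79, adjusted p = 0.0333 and 0.0212). Against control, the Lum value in NASH-CH was 0.25 and turned to -0.03 without NASH-CH rat 5.

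Dcn, the decorin gene, whose product binds collagen and TGF beta, had a lowest, median and highest level of 5.05, 6.68 and 9.22 CPM in control rats, 3.93, 5.12 and 7.87 in NASH rats and 5.76, 9.35 and 23.6 in NASH-CH rats. The groups overlapped in each comparison, and NASH-CH rats 5 and 2, at 23.6 and 15.5 CPM, were the highest of the 18. Its log2 fold changes were -0.35 (SE 0.33) in NASH, 0.63 (SE 0.29) in NASH-CH and 0.98 (SE 0.30) between the 2 models, with limma adjusted p-values of 0.58, 0.147 and 0.0729. DESeq2 called the last 2 (0.78 with adjusted p = 0.0362, and 1.13 with adjusted p = 0.00286). The difference between the models was also called by edgeR's quasi-likelihood test (1.13, adjusted p = 0.0254), and by limma without the filter (0.99, adjusted p = 0.0323) and with NASH-CH counts thinned (1.00, adjusted p = 0.0442). Without NASH-CH rat 5 the Dcn values in NASH-CH were 0.39 against control and 0.74 against NASH, and without rat 4 the latter was 1.15 and called (limma adjusted p = 0.0216). Within a rat, the ratio of Bgn to Dcn levels had a median of 3.44 in control livers, 7.58 in NASH livers and 4.74 in NASH-CH livers, and that of Lum to Dcn 0.282, 0.135 and 0.174. The groups overlapped for both ratios. Bgn to Dcn ran from 2.46 to 5.79, 4.59 to 14.1 and 2.69 to 15.3 in the same order, and Lum to Dcn from 0.128 to 0.343, 0.0686 to 0.149 and 0.124 to 0.269. These ratios carry no length correction and were not tested.

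Vcan, the versican gene, rose in NASH-CH against both other groups. Versican is a large hyaluronan-binding proteoglycan of provisional matrix. Its lowest, median and highest levels were 0.289, 0.495 and 0.789 CPM in control rats, 0.357, 0.535 and 0.923 in NASH rats and 1.24, 1.79 and 2.78 in NASH-CH rats. Every NASH-CH rat was above every other rat, and NASH and control rats overlapped almost fully. The log2 fold change was 1.80 in NASH-CH against control (SE 0.31, 95% interval 1.15 to 2.45, limma adjusted p = 0.00072) and 1.67 against NASH (SE 0.29, 95% interval 1.07 to 2.27, limma adjusted p = 0.00131), or 3.48 and 3.18-fold. In NASH it was 0.13 (95% interval -0.67 to 0.93, limma adjusted p = 0.881). Raw counts ran from 6 to 22 in controls, from 8 to 22 in NASH and from 57 to 214 in NASH-CH, and with NASH-CH counts thinned to the depth of the others Vcan still rose by 1.70 and 1.57 (limma adjusted p = 0.00104 and 0.00229). Without NASH-CH rat 5, the highest, the increases were 1.64 and 1.50.

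**Figure D2:**
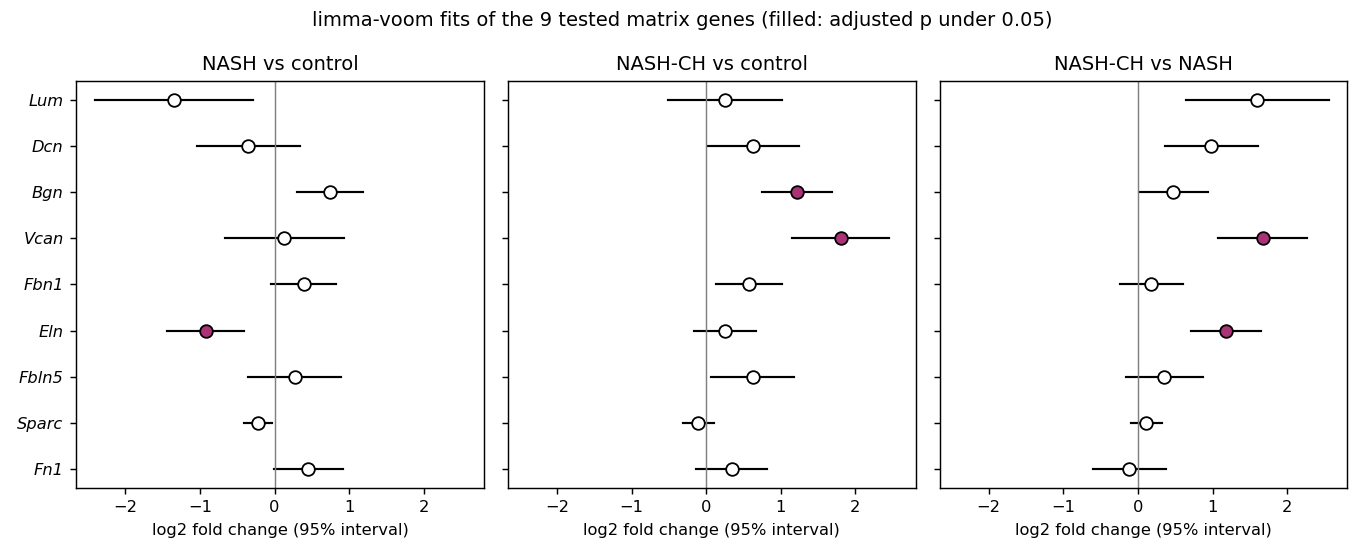
Log2 fold change (x axis) of the 9 tested genes (y axis) in each comparison from the limma-voom fit, with the 95% interval as a line and a filled point where the adjusted p was under 0.05. Filled points are Eln in NASH, Bgn and Vcan in NASH-CH against control, and Vcan and Eln in NASH-CH against NASH.

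Of the elastic fibre genes, Eln was lower in NASH than in control and higher in NASH-CH than in NASH, and neither Fbn1 nor Fbln5 passed the threshold. Eln, which encodes the elastin core, had a lowest, median and highest level of 2.8, 4.79 and 6.67 CPM in control rats, 1.88, 2.29 and 3.3 in NASH rats and 3.87, 4.97 and 7.52 in NASH-CH rats. All NASH-CH rats were above all NASH rats, and NASH and control rats overlapped at NASH rat 1 (3.30 CPM) and control rats 4 and 6 (3.18 and 2.80 CPM). Eln fell by 0.92 on the log2 scale in NASH (SE 0.25, 95% interval -1.44 to -0.41, limma adjusted p = 0.0471). Over the 18 fits that left out 1 rat, its adjusted p ran from 0.0128 to 0.105, and the call was kept in only 4 of them, those without control rat 6 or NASH-CH rat 4, 5 or 6. It was also lost without the filter on low counts (-0.92, limma adjusted p = 0.0646) and with library size in place of TMM scaling (-0.72, limma adjusted p = 0.0904). From NASH to NASH-CH, Eln rose by 1.18 (SE 0.22, 95% interval 0.71 to 1.65, limma adjusted p = 0.00359), and it was called in all 18 such fits. NASH-CH and control rats differed by 0.25 (95% interval -0.17 to 0.67, limma adjusted p = 0.406).

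Fbn1, whose product forms the microfibril scaffold and holds latent TGF beta complexes, had a lowest, median and highest level of 9.67, 13.7 and 17.8 CPM in control rats, 14.5, 17.2 and 23.6 in NASH rats and 12.7, 18.9 and 33 in NASH-CH rats. Fbn1 levels overlapped in each comparison, although all NASH rats were above the control mean. The log2 fold changes of Fbn1 were 0.39 (95% interval -0.05 to 0.83) in NASH and 0.57 (95% interval 0.13 to 1.01) in NASH-CH, with limma adjusted p-values of 0.297 and 0.0678. edgeR's quasi-likelihood test and DESeq2 both gave 0.64 in NASH-CH and called it (adjusted p = 0.0365 and 0.019), as did limma without control rat 2, NASH-CH rat 1 or NASH-CH rat 4 (0.65, 0.65 and 0.70, adjusted p = 0.047, 0.0459 and 0.0222). Fbln5 had a lowest, median and highest level of 1.45, 2.35 and 2.89 CPM in control, 1.8, 2.85 and 3.46 in NASH and 1.84, 4.11 and 4.84 in NASH-CH rats. Of the NASH-CH rats, 4 were above all other rats and the other 2 lay among them. The Fbln5 log2 fold change in NASH-CH was 0.63 (95% interval 0.07 to 1.18, limma adjusted p = 0.112) and was called by DESeq2 (0.65, adjusted p = 0.0378) and by limma without NASH-CH rat 1 (0.80, adjusted p = 0.0164). Within a rat, the ratio of Eln to Fbn1 levels ran from 0.205 to 0.471 in controls, from 0.0972 to 0.19 in NASH and from 0.184 to 0.325 in NASH-CH, which was not tested.

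Of the glycoproteins, Sparc and Fn1 were called in no comparison, and Postn had too few counts for the same fit. Sparc, a collagen-binding matricellular protein, had a lowest, median and highest level of 76.5, 90 and 97.8 CPM in control, 71.4, 73.9 and 85.3 in NASH and 65.8, 83.3 and 95.1 in NASH-CH rats. Its groups overlapped, and the spread within a group was 6.9% to 11.7% of the mean, the smallest of the 10 genes in each group. Sparc log2 fold changes were -0.22 in NASH (95% interval -0.41 to -0.03, limma adjusted p = 0.174) and -0.11 in NASH-CH (95% interval -0.31 to 0.10, limma adjusted p = 0.478). Both changed sign with library size in place of TMM scaling, to 0.01 and 0.16, so that the sign of Sparc depends on scaling.

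Fn1, which encodes the fibronectin of plasma and of cell-made matrix, had a lowest, median and highest level of 657, 894 and 1270 CPM in control, 1050, 1230 and 1560 in NASH and 675, 1050 and 1980 in NASH-CH rats. Of the NASH rats, 3 were above all control rats, and NASH-CH rats spanned nearly the whole range. The Fn1 log2 fold changes were 0.45 in NASH (95% interval -0.01 to 0.92, limma adjusted p = 0.245) and 0.34 in NASH-CH (95% interval -0.14 to 0.81, limma adjusted p = 0.329). Postn, a matricellular protein of activated fibroblasts, did not pass the filter on low counts and was not tested with the others. Its lowest, median and highest levels were 0.0496, 0.154 and 0.249 CPM in control, 0, 0.0814 and 0.19 in NASH and 0.0873, 0.366 and 0.714 in NASH-CH rats. NASH rat 4 had 0 counts, which allows up to 3 counts, or 0.126 CPM. Of the 6 NASH-CH rats, 5 were above all control and all NASH rats. In a fit of 20887 genes without the filter, Postn gave 1.22 (SE 0.54, limma adjusted p = 0.107) against control and 2.05 (SE 0.54, limma adjusted p = 0.0184) against NASH, from 4 to 55 counts in NASH-CH and at most 6 in the other rats.

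Between NASH and control rats, 1 of the 9 tested genes was called, Eln (lower), where 3.12% of all genes were called, and the groups did not overlap for 2 (Lum lower, Bgn higher), where 3.16% of all genes did not overlap. Between NASH-CH and control rats, 2 were called, Bgn and Vcan (both higher), beside 17.0% of all genes, and the same 2 did not overlap, beside 7.11%. Between NASH-CH and NASH rats, 2 were called, Vcan and Eln (both higher), beside 4.20% of all genes, and the same 2 did not overlap, beside 3.46%. In NASH-CH against control, 2 of 9 is close to the share of all genes called. Median log2 fold changes of the 9 genes were 0.13, 0.57 and 0.47, beside 0.007, 0.013 and 0.007 for all genes tested, and 8 of 9 were above 0 in both NASH-CH comparisons, beside 51.5% and 51.3% of all genes. Since the comparisons share rats, these counts are not independent of each other.

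The genes were also compared rat by rat, after each group mean was subtracted from log2 CPM, over 36 pairs of the 9 tested genes in 18 rats. Of these pairs, 29 had a Pearson's r above 0, with a median of 0.28. Pairs of all genes were not counted in this way, so these values do not set the 9 genes apart. Bgn and Fbn1 varied together, with Pearson's r of 0.84 (permutation p = 0.00014, adjusted over 36 pairs 0.00504) and Spearman's rho of 0.90 (permutation p = 6e-05, adjusted 0.00216), and within the control, NASH and NASH-CH groups r was 0.87, 0.84 and 0.84. Without the 2 rats with the most extreme Bgn, r was 0.84. Dcn and Fn1 varied in opposite directions, with r of -0.74 (permutation p = 0.00248, adjusted 0.0446) and rho of -0.69 (permutation p = 0.00221, adjusted 0.0398), and r was -0.71, -0.79 and -0.79 within the groups and -0.65 without the 2 rats farthest from the median of Dcn. The Pearson's r of the other 34 pairs all had adjusted p-values above the threshold, such as Lum with Dcn (r of 0.67, permutation p = 0.00765, adjusted 0.0918), where r was -0.59 in control and 0.87 and 0.88 in NASH and NASH-CH rats. Scaling and depth moved with some of these genes, in that r with the TMM factor was 0.50 for Bgn and 0.56 for Fbn1, and r with the log2 total count was 0.51 for Dcn and -0.41 for Fn1. Their part in the correlations was not tested.

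**Figure D3:**
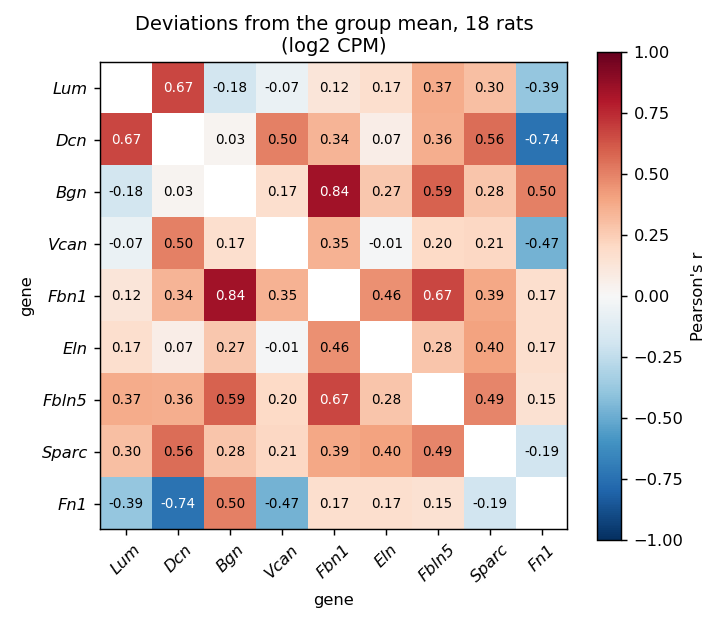
Pearson's r between the 9 tested genes (both axes) over 18 rats, each log2 CPM value taken as its deviation from the group mean, on a colour scale from -1 to 1. The largest values are 0.84 for Bgn with Fbn1 and -0.74 for Dcn with Fn1.

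**Figure D4:**
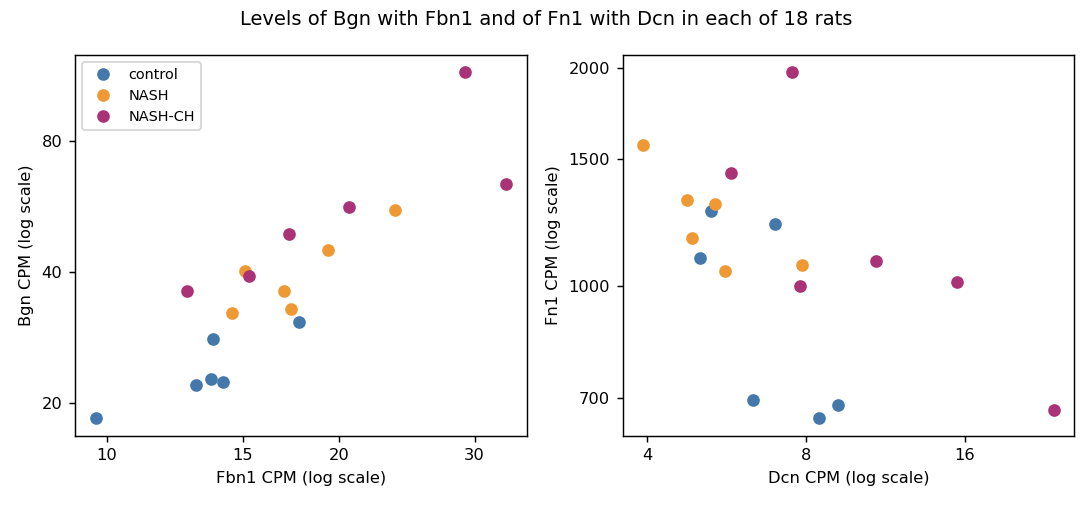
Levels in CPM (log axes) of Bgn against Fbn1 and of Fn1 against Dcn in each of the 18 rats, coloured by group. Bgn rises with Fbn1 within each group, and Fn1 falls as Dcn rises.

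By the same measure, the tested genes outside the list closest to each gene over 18 rats were Clec11a and Ogn for Lum (r of 0.84 and 0.84), Mxra8 and S100a6 for Dcn (0.91 and 0.90), Chd8 and Ttyh3 for Bgn (0.96 and 0.91), and F2r and Cstf3 for Vcan (0.85 and 0.85). They were Col6a3 and Tns3 for Fbn1 (0.89 and 0.89), Ptprk and Cep97 for Eln (0.83 and 0.80), Pde5a and Pabpn1 for Fbln5 (0.84 and 0.80), Sept4 for Sparc (0.80), and Lrp1 and Adgrl1 for Fn1 (0.92 and 0.88). These values were picked as the highest of all genes, share scaling and depth, and are a description with no test.

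Other genes of the same families were taken from the same fit, where 8.38% of all genes were called higher and 8.60% lower in NASH-CH against control, 1.58% higher and 1.54% lower in NASH against control, and 1.81% higher and 2.39% lower in NASH-CH against NASH. Of 13 other genes tested from a list for elastic fibres and microfibrils, 4 were higher in NASH-CH and none lower, namely Ltbp1 (1.26), Ltbp2 (1.66), Fbln1 (2.26) and Efemp2 (0.89). The list holds Mfap1a (-0.11, not called) by its name alone. Ltbp1 and Ltbp2 belong to the latent TGF beta binding protein family, and Efemp2 is fibulin-4. None of the 13 was called in NASH, and 4 were higher in NASH-CH than in NASH, Fbln1 (1.88) and Emilin2 (0.94) among them. Of 8 other small leucine-rich proteoglycan genes, 3 were higher in NASH-CH against control (Ecm2 1.30, Prelp 0.55 and Aspn 3.64), none was called in NASH, and 1 was higher in NASH-CH than in NASH (Ecm2 0.82). The Aspn level was only 1.27 CPM in NASH-CH and 0.129 CPM in control rats.

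From a list of hyalectan, hyaluronan and link protein genes, 8 were tested. None of the hyalectan and Hapln link protein genes of that list passed the filter on low counts. Among the 8, Cemip, a hyaluronan depolymerising protein, was higher in NASH-CH (1.90) and Habp4 lower (-0.36). Among 18 glycosaminoglycan chain enzymes, Dsel, Chsy1 and Chpf2 were higher (0.68, 0.64 and 0.39) and the sulphotransferase Chst13 lower (-1.21), a share near that of all genes. Neither of these lists had a call in NASH or between the models. Of 16 other matricellular and adhesive glycoprotein genes, 7 were higher in NASH-CH and none lower, including Smoc2 (1.96), Ctgf (1.78), Thbs1 (1.72) and Thbs2 (0.94). None of the 16 was called in NASH, and between the models 3 were higher, including Spp1 (1.61) and Thbs1 (1.24), and Ecm1 was lower. Median log2 fold changes in NASH-CH against control were 0.89 for the elastic fibre list, 0.42 for the leucine-rich list, 0.46 for the hyaluronan list, 0.07 for the enzymes and 0.88 for the matricellular list, beside 0.013 for all genes.

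Of 17 genes from a list of receptors, not all of which are known to bind these proteins, Itga8 (1.65) and Cd36 (1.03) were higher in NASH-CH. That share is near that of all genes. Itga5, a subunit of the fibronectin receptor, was lower in NASH (-0.66). Between the models Itga8 was higher (1.31) and Stab1, a scavenger receptor that takes up Sparc, lower (-0.69). Of 9 protease genes tested, Mmp12, an elastase of macrophages, was higher in NASH (4.02, SE 0.89), in NASH-CH (5.42, SE 0.86) and between the models (1.40), and Adamts5 (2.14), which cleaves versican, and Mmp2 (1.06) were higher in NASH-CH. The level in control rats averaged only 0.174 CPM for Mmp12 and 0.309 CPM for Adamts5, so the size of these fold changes rests on few counts. Median log2 fold changes in NASH-CH were 0.26 for receptors and 0.18 for proteases.

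**Figure D5:**
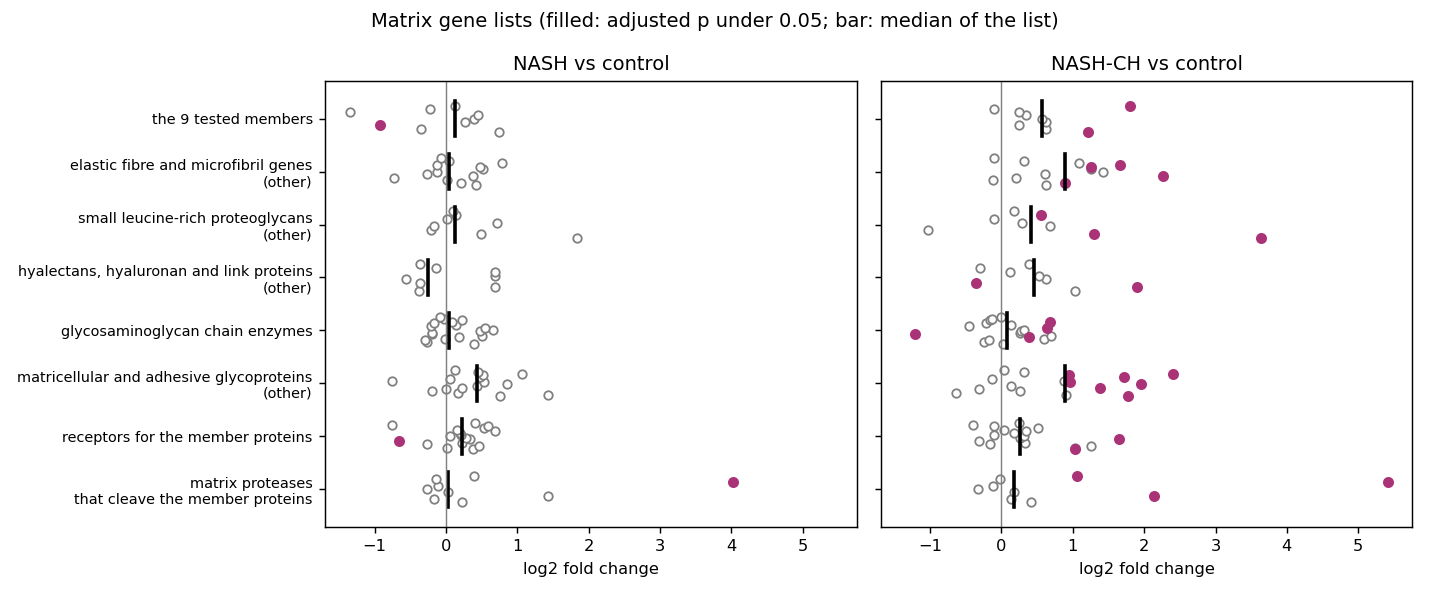
Log2 fold change against control (x axis) of the 9 tested genes and of each gene of 7 related lists (y axis), in NASH and NASH-CH, with filled points for an adjusted p under 0.05 and a bar at each list's median. Filled points are few in NASH and lie mostly to the right of 0 in NASH-CH.

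Markers of the cells that make this matrix moved unevenly. Of 8 myofibroblast markers tested, 3 were higher in NASH-CH against control (Tagln 0.97, Col1a1 1.02 and Tpm2 0.67), 4 were higher in NASH-CH than in NASH and none was called in NASH, and the summed level ran from 245 to 338 CPM in controls, 200 to 278 in NASH and 257 to 395 in NASH-CH. Acta2 was at 1.32, 1.32 and 2.56 CPM on average and was not called. Of 9 stellate cell markers, Rgs5 (1.87) and Des (0.65) were higher and 3 lower in NASH-CH, including Lrat (-0.68) and Colec11 (-0.50), and in NASH Rgs5 was higher (1.50) and Lrat lower (-0.59), with summed levels of 335 to 420, 366 to 455 and 216 to 365 CPM. Between the models, Des was higher (0.56), and Colec11 (-0.54) and Ecm1 (-0.81) were lower. Of 7 portal fibroblast markers, 3 were higher in NASH-CH (Mgp 1.82, Gas6 0.80 and Cd34 0.96), while Thy1 was not tested at 0.0436, 0.0558 and 0.249 CPM, and the summed level was 185 to 327, 148 to 271 and 213 to 313 CPM. Between the models 1 was higher (Mgp 1.46). Of 6 vascular smooth muscle markers, 2 were higher in NASH-CH (Lmod1 1.64 and Mylk 0.61) and 1 in NASH (Mylk 0.54), and 1 between the models (Lmod1 1.16), with Myh11 not called and summed levels of 78.5 to 105, 108 to 151 and 123 to 197 CPM. Most of the myofibroblast sum was Col3a1 (236, 197 and 278 CPM on average in control, NASH and NASH-CH rats). Most of the portal fibroblast sum was Dpt (226, 169 and 161 CPM), which was lower in NASH-CH than in control (-0.50) but not called. Most of the smooth muscle sum was Mylk (80, 117 and 123 CPM).

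Mesothelial and cholangiocyte markers summed to at most 190 and 12.6 CPM in control and NASH rats and reached 414 and 53.5 CPM in NASH-CH rat 5, the rat with the highest Lum, Dcn, Vcan, Fbn1, Eln and Postn of its group. Msln and Krt19, their defining markers, averaged 0.903 and 1.78 CPM in control and 3.09 and 2.16 CPM in NASH-CH rats. The mesothelial sum was mostly Krt8, a keratin that hepatocytes also make (118, 114 and 166 CPM on average in the 3 groups, at most 380 CPM in a rat). Upk3b, Upk1b and Lrrn4 averaged 0.205, 0.115 and 0.189 CPM in NASH-CH rats and 0.23, 0.129 and 0.216 CPM in controls. Wt1 and Gpm6a of the same list went the other way. Wt1, not tested, averaged 0.0963, 0.27 and 0.458 CPM in control, NASH and NASH-CH rats, and Gpm6a 6.82, 11.6 and 11.3 CPM. None of the 3 mesothelial markers tested was called in any comparison, and of the 5 cholangiocyte markers only Spp1 was, between the models. Of 7 endothelial markers, Vwf was higher in NASH-CH (1.13) and Stab1 lower than in NASH, with summed levels of 264 to 361, 325 to 371 and 198 to 335 CPM. Of 8 macrophage markers, 6 were lower in NASH-CH, including Marco (-2.15), Cd5l (-0.93), Cd163 (-0.48) and Csf1r (-0.46), and 1 in NASH (Marco, -2.78), with summed levels of 269 to 489, 189 to 279 and 161 to 251 CPM. Of 8 hepatocyte markers, 3 were lower in NASH-CH (Apoa1 -0.66, Ttr -0.76 and Alb -0.61) and 1 in NASH (Apoa1 -0.82), with summed levels of 126000 to 188000, 86900 to 147000 and 83700 to 138000 CPM. The part of these cell types in the values of the 10 genes was not tested.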

How the data were processed

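Global transcriptome profiling covered liver RNA of 18 rats, 6 per group, grouped by the group named in the labels. The authors used STAR in 2 passes for alignment to Rnor_6.0 after adapter trimming and RSEM with the Ensembl annotation of release 95 for quantification. What the authors deposited is an expected count per gene and rat. These values are neither normalized for library size nor for gene length. Versions of these tools are not given in the sources used here. The labels name a different RNA extraction kit from that in the methods.

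Expected counts were rounded, as in the methods, and scaled by the TMM method of edgeR 4.0.16. Genes kept by filterByExpr were tested with limma 3.58.1 (voom and moderated statistics) in R 4.3.3, with 1 fit of 18 rats and a mean per group, and each of the 3 comparisons was adjusted over 12904 genes by the Benjamini-Hochberg method. No filter on low counts is stated in the methods. Log2 CPM for correlations used a prior count of 2, and pairs were tested by 100000 two-sided permutations within groups. The fits were tested on simulated data, and no 2 rats of a group agreed within counting error (smallest chi-square per degree of freedom 30.1).

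Results were recomputed with DESeq2 1.42.0, the quasi-likelihood test of edgeR, DESeq2 size factors or library size only, no filter, at least 10 counts in every sample, each pair of groups fitted alone, sample quality weights, a replicate block, an adjusted p under 0.01, thinned NASH-CH counts, no small non-coding RNA genes, and leaving out each rat in turn. A library total speaks to counting error alone, so precision depends on 6 rats per group.

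Besides the 10 genes, the text names up to 4 called genes per list with the largest absolute moderated t in NASH-CH, up to 2 in NASH and up to 2 between the models, the 2 closest genes to each member, and defining markers. The result for 1 gene that this rule names is not reported here. Ecm1, Krt8, Upk3b, Upk1b, Lrrn4, Wt1, Gpm6a, Col3a1 and Dpt were named after their values were seen. The genes and lists were chosen with earlier results of these data known.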

Additional observations from a re-analysis of the deposited data

Results flagged for a closer look

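In NASH-CH rats, Bgn was far higher in rat 6 (115 CPM) than in the other 5 rats, with a gap to the nearest rat of 0.652 of the range of the group, above Dixon's critical value for 6 samples. Of 30 groups of rats examined (10 genes in 3 groups) this was the only 1 past that value, where chance gives about 1 in 20. Vcan differed between the models, as its effect against control was 1.67 larger on the log2 scale in NASH-CH than in NASH, by the limma comparison of NASH-CH with NASH rats (adjusted p = 0.00131). Eln differed likewise, by 1.18 (limma adjusted p = 0.00359), with a decrease in NASH and a value near 0 in NASH-CH. Every NASH-CH rat was above every NASH rat for both genes.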

How the results depend on the processing

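Among the log2 fold changes of the tested genes under the alternatives, 721 kept their direction and their side of the threshold, 34 came to pass it, 16 no longer passed it and 6 changed sign. Bgn and Vcan in NASH-CH against control, and Vcan and Eln in NASH-CH against NASH, were called in every alternative that could fit them and in all 18 fits without 1 rat. Vcan and Lum had too few counts for the fit with at least 10 counts in every sample. The sign changed with library size only for Sparc in NASH (0.01) and NASH-CH (0.16) against control, with sample quality weights for Fbn1 between the models (-0.01), without control rat 4 for Vcan in NASH (-0.04, range over fits without 1 rat to 0.28), and without NASH-CH rat 5 for Lum in NASH-CH (-0.03, to 0.45) and Fn1 between the models (0.02, from -0.28). Scaling by library size moved the median of all genes to 0.229 (NASH) and 0.268 (NASH-CH), and the share of called genes that were higher from 50.6% to 90.8%, from 49.4% to 85% and, between the models, from 43.2% to 32.4%. Without the filter the higher share was 27.8% in NASH-CH against control and 19.7% between the models, and with each pair of groups fitted alone it was 30.1% between the models.

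Genes past the threshold numbered 403 in NASH, 2192 in NASH-CH and 542 between the models. In NASH the count was 652 by edgeR, 1228 by DESeq2, 865 with library size only, 268 without the filter, 644 with 2 groups alone, 1509 with quality weights and 39 at 0.01. In NASH-CH it was 2841 by DESeq2, 3270 with library size only, 5495 without the filter, 1408 with 2 groups alone and 849 at 0.01. Between the models it was 949 by DESeq2, 2649 without the filter, 349 with 2 groups alone, 239 at 0.01 and 270 without small RNA genes. It was also 367 with library size only, 370 with at least 10 counts in every sample and 774 with quality weights. Settings not listed moved these counts less. Leaving out 1 rat gave 128 (without control rat 3) to 982 (without control rat 6), 1519 to 2409, and 346 (without NASH rat 3) to 591 genes. Of the 9 tested genes, those called in NASH were 3 by DESeq2, with 2 groups alone and with quality weights, 0 without the filter and at 0.01, and 0 to 2 without 1 rat. In NASH-CH they were 5 by DESeq2, 4 with library size only, 1 with at least 10 counts and 2 to 4 without 1 rat. Between the models they were 4 by edgeR and DESeq2, 1 with at least 10 counts and 2 to 3 without 1 rat, and without the filter 5 of all 10 genes (Lum, Dcn, Vcan, Eln and Postn). The cause of these differences was not tested.

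Rats with the same number deviated from their group means with correlations of -0.119 to 0.171 over 18 pairs, with a median of 0.062 and 3 of them over 0.1. Rats with different numbers were not compared in this way, so whether the numbers pair the rats was not tested. A replicate block gave 444, 2095 and 540 genes and 1, 4 and 3 of the tested genes, with Fbn1 and Fbln5 added in NASH-CH and Lum between the models. Depth limits Lum, Vcan and Postn most, with as few as 7, 6 and 0 counts in a rat.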
